A study of Homo sapiens with 3 samples.

Results

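ZNF genes, the zinc finger genes named by the letters ZNF, a number and an optional letter, were described in PC3 cells depleted of USP16. Of 557 such symbols in the expression table, 134 had a mean over the 3 libraries of 5 TPM or more, where TPM is a level per transcript length scaled to the same sum in each library. These 134 genes were chosen by that mean, which takes in the control and both knockdown libraries, so their levels are a description and were not tested. PC3 is an androgen-independent human prostate cancer cell line. RNA-seq was performed on 1 library of control cells titled shCON and described in the labels as RFP. There was 1 library of cells with the hairpin shUSP16#1 and 1 of cells with the hairpin shUSP16#2. The paper describes hairpins in the pLKO.1 vector, a vector control named shCON and selection of stable cells in puromycin. It does not state these details for the RNA-seq libraries themselves. USP16 is a deubiquitinase, and the study asked what follows in these cells from its loss. No other treatment is given in the labels, and there was 1 library per condition, so no difference has a replicate check, no error can be given and no p-value was computed. Both comparisons share the single shCON library.

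USP16 itself was at 19.9 TPM in shCON, 3.5 TPM with shUSP16#1 and 1.08 TPM with shUSP16#2. The epithelial keratins KRT8 and KRT18 were at 622 to 947 TPM in the 3 libraries, while KLK3, which encodes prostate-specific antigen, was listed at 0 in each. Each change is the difference in log2(TPM + 1) between a hairpin library and shCON, and the added 1 makes changes of weakly expressed genes look smaller than they are. A gene is said to have fallen or risen only where that difference reached 2-fold, and in bulk RNA fewer cells that express a gene and less RNA per cell cannot be told apart. The median change of the 9053 other genes that reached the same minimum was -0.17 under shUSP16#1 and -0.34 under shUSP16#2, so both libraries lay below shCON for most genes on this scale.

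Most human ZNF genes encode C2H2 zinc fingers, short loops in which 2 cysteines and 2 histidines hold a zinc ion and the residues between them read DNA. Many carry a KRAB domain ahead of the fingers, which recruits the co-repressor TRIM28 and, through it, the methyltransferase SETDB1 and heterochromatin proteins, and these KRAB genes are best known for silencing transposable elements. Others lack KRAB and serve as activators, chromatin factors or RNA-binding proteins, and the symbol alone does not separate these roles.

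The name was checked against the protein domains listed in the deposited annotation (Pfam). Of the 134 genes, 54 carried a KRAB domain, 66 carried C2H2 fingers without KRAB, and 14 had no C2H2 finger listed. The last group held ZNF451, ZNF207, ZNF106, ZNF326, ZNF330, ZNF503, ZNF703, ZNF706, ZNF428 and ZNF598 as well as the pseudogenes ZNF252P and ZNF815P. A SCAN domain, which joins such proteins in pairs, was listed for 8 genes and a BTB domain for 1, ZNF131. In translated coding sequences the median was 9 fingers per protein, with a median of 10 in KRAB genes and 8 in C2H2 genes without KRAB. The highest number was 31, and 4 proteins held no sequence that fitted the finger pattern.

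The first finger of 10 genes is shown to illustrate their base content. The changes below were set beside the GC content of the whole transcript, not of the finger, and these can differ. In ZNF580 the finger held 71.4% GC and the transcript 61.7%. Each run is the coding strand from the first cysteine codon to the last histidine codon, 5′ to 3′, from GENCODE release 29 on GRCh38, and the capitals mark the 4 zinc-binding codons. The first 3 genes were among the 10 lowered most under both hairpins, and their fingers were poor in G and C. Their transcripts held 38.6%, 35.4% and 40.4% GC. They do not stand for all 10, since ZNF664 and ZNF207 had transcripts of 48.0% and 46.1% GC.
ZNF146: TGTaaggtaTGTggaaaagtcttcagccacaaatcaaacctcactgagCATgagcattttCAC
ZNF639: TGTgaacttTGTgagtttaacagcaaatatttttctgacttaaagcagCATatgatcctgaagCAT
ZNF121: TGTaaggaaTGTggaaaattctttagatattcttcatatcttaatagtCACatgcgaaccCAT

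These 3 runs held 41.3%, 33.3% and 31.7% G and C in the order shown. They lie at chr19:36236492-36236554 on the + strand in exon 4 of 4, chr3:179333580-179333645 on the + strand in exon 7 of 7 and chr19:9566615-9566677 on the - strand in exon 4 of 4. The next 4 genes were among the 10 raised most under both hairpins and carry no KRAB domain. ZNF133, also among the 10 and without KRAB listed, had a transcript of 55.2% GC, below those of the 4.
ZNF524: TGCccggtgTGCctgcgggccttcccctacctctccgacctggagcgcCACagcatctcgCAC
ZNF580: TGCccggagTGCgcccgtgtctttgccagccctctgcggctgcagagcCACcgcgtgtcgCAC
ZNF837: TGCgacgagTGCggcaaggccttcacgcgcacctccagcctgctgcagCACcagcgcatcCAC
ZNF219: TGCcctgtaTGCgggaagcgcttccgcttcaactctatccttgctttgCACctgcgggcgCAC

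In these 4 runs G and C made up 69.8%, 71.4%, 68.3% and 60.3% of the bases, and every zinc-binding codon ended in C. They lie at chr19:55602458-55602520 (+ strand, exon 2 of 2), chr19:55642788-55642850 (+ strand, exon 2 of 2), chr19:58368454-58368516 (- strand, exon 3 of 3) and chr14:21093060-21093122 (- strand, exon 3 of 5). The remaining 3 were also among the 10 raised most but carry KRAB, and their fingers held less G and C than those of the 4 before. They do not stand for all raised KRAB genes, since ZNF517, the other gene among the 10 with KRAB listed, had a transcript of 66.3% GC.
ZNF480: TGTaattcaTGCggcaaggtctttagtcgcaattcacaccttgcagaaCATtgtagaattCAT
ZNF226: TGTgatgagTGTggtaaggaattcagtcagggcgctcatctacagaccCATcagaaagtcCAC
ZNF544: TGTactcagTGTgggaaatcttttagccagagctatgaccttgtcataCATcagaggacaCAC

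These held 39.7%, 49.2% and 44.4% G and C, and lie on the + strand of chromosome 19, at chr19:52321947-52322009 in exon 5 of 6, chr19:44176187-44176249 in exon 6 of 6 and chr19:58261750-58261812 in exon 4 of 4. The same protein motif was thus spelled with different base content in different members.

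Most ZNF genes were transcribed at low levels in PC3 cells. Of the 557 symbols, 93 were listed at 0 in all 3 libraries, 160 had a mean above 0 and under 1 TPM, and 170 had a mean from 1 to under 5 TPM. The 134 genes above the minimum had a median of 11.1 TPM in shCON, 9.67 TPM with shUSP16#1 and 8.16 TPM with shUSP16#2, against 24.4, 21.4 and 18.5 TPM for the other genes. They held 0.227%, 0.208% and 0.183% of all TPM in the 3 libraries. A mean under 10 TPM was found for 69 of them (51.5%, against 23.6% of other genes), and 5 reached a mean of 50 TPM.

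The genes nearest the minimum were ZNF749 and ZNF274, both with a mean of 4.93 TPM just outside it, and ZNF121 (mean 5.0 TPM) and ZNF101 (mean 5.07 TPM) just inside. ZNF274, a KRAB protein that brings SETDB1 to the ends of other zinc finger genes, was at 3.59 TPM in shCON, 5.73 TPM with shUSP16#1 and 5.48 TPM with shUSP16#2. ZNF121 was at 8.87, 3.99 and 2.14 TPM in the same order, so it passed the minimum through its shCON level.

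The most abundant was ZNF593, a small factor needed for maturation of the large ribosomal subunit, at 116 TPM in shCON, 111 TPM with shUSP16#1 and 128 TPM with shUSP16#2. ZNF787 followed at 88.2, 86.6 and 78 TPM. ZNF706, the shortest member at 501 bases, was at 87.4 and 79.3 TPM in shCON and shUSP16#1 and at 55.1 TPM under shUSP16#2. ZNF511 was at 66.4, 67.4 and 79.4 TPM, and ZNF622, which also acts in maturation of the large ribosomal subunit, at 53.5, 48 and 46.5 TPM. Of the 6 most abundant genes, ZNF207 alone fell under either hairpin.

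The medians of the ZNF genes lay close to those of the other genes. Their median change was -0.14 under shUSP16#1 and -0.34 under shUSP16#2, against -0.17 and -0.34 for other genes. The middle 50% of members spanned -0.45 to 0.13 under shUSP16#1 and -0.80 to 0.10 under shUSP16#2, and that of other genes -0.55 to 0.17 and -0.86 to 0.10. Within 1.5-fold of shCON lay 76.1% of members under shUSP16#1 and 62.7% under shUSP16#2, against 69.5% and 56.3% of other genes.

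**Figure D1:**
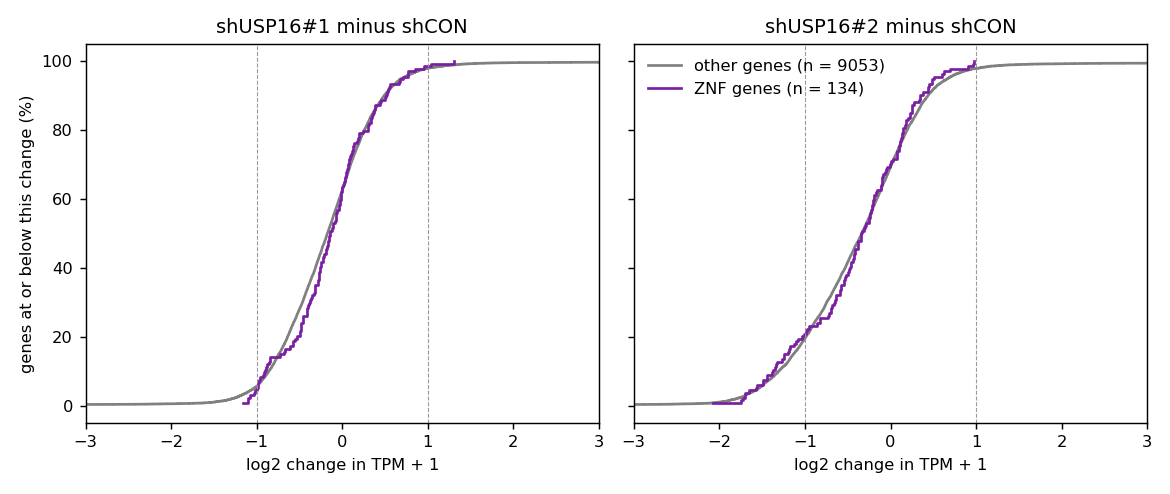
Cumulative share of genes (%) at or below each log2 change in TPM + 1, for shUSP16#1 (left) and shUSP16#2 (right) minus shCON, with 134 ZNF genes in purple and 9053 other genes in grey; dashed lines mark 2-fold and the axis is cut at 3 either way. The curves cross near the medians of -0.14 and -0.34, and the purple curve is steeper between -0.8 and 0 and ends at 1.30 and 0.98.

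Under shUSP16#1, 7 of 134 ZNF genes fell (5.22%), where 5.54% of all 9187 genes at the minimum fell, and 2 rose (1.49%), where 2.01% of all genes rose. Under shUSP16#2, 28 fell (20.9%), where 19.5% of all genes fell, and 0 rose, where 2.1% of all genes rose. Under both hairpins 7 fell (5.22%, against 4.72% of all genes) and 0 rose (against 0.98%). These counts stood near the background of all genes in each direction. The calls rested in part on the GC trend described below. To remove it, the median of other genes of like GC content was subtracted and the median of all other genes added back. On that scale 1 ZNF gene (ZNF296, at -1.15) was 2-fold lower under shUSP16#1, 12 under shUSP16#2 and 0 under both. ZNF296 had not fallen before the trend was removed. The share of other genes on that scale is not given, so these counts have no background. The calls also rested on the minimum. Of the 28 genes that fell under shUSP16#2, 14 reached 5 TPM in the mean of the hairpin libraries, and the other 14 passed through their shCON level.

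At any size, 81 ZNF genes (60.4%) were lower than shCON under both hairpins, against 58.2% of other genes, and 37 (27.6%) were higher under both, against 25.9%. The value under shUSP16#2 lay below that under shUSP16#1 for 109 of them (81.3%, against 73.4% of other genes). The shUSP16#2 library was thus the lower of the hairpin libraries in most members, as it was for most other genes.

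The split depended on the scale. After the median of the other genes was subtracted, 0 ZNF genes were 2-fold lower and 4 were 2-fold higher under shUSP16#1, and 16 were lower and 4 higher under shUSP16#2. The shares of other genes on this scale are not given.

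**Figure D2:**
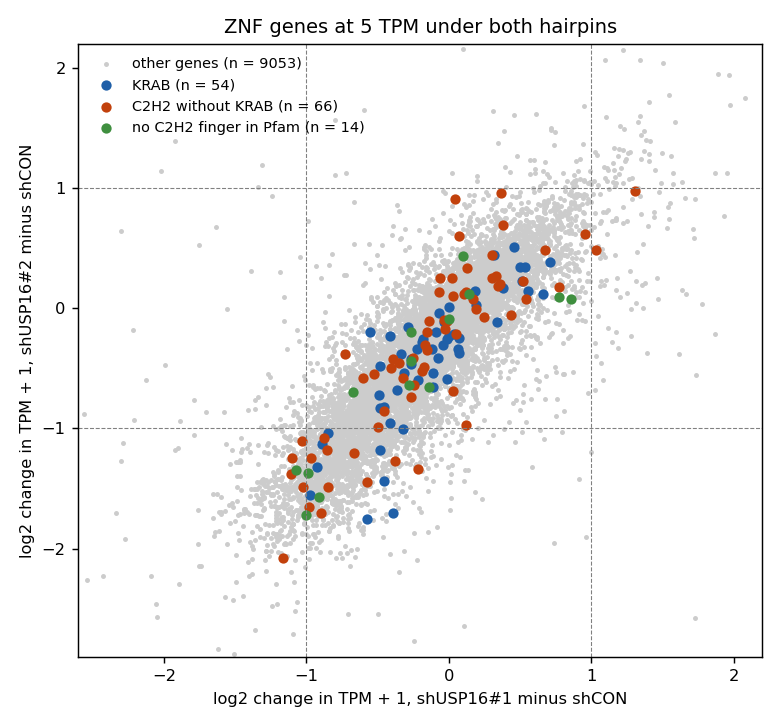
Log2 change in TPM + 1 of each gene under shUSP16#1 (horizontal) and shUSP16#2 (vertical), with 54 KRAB genes in blue, 66 C2H2 genes without KRAB in orange, 14 without a listed C2H2 finger in green and other genes in grey; dashed lines mark 2-fold, and 123 other genes lie outside the axes. Of the coloured points, 7 lie beyond 2-fold to the lower left, none of them blue, and 0 lie beyond it to the upper right; both axes share the shCON library.

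The 7 genes that fell under both hairpins were ZNF146, ZNF664, ZNF638, ZNF106, ZNF35, ZNF639 and ZNF451, and none of them carries KRAB. That absence rests on the added 1. In TPM alone, the KRAB genes ZNF26 (8.92, 4.06 and 2.37 TPM) and ZNF124 (10.4, 5.03 and 3.57 TPM) were more than 2-fold below shCON under both hairpins. With 0.1 added instead, 13 ZNF genes were 2-fold lower under both. Of the 7, ZNF106, ZNF35 and ZNF451 passed the minimum through their shCON level. With the GC trend removed none of the 7 stayed 2-fold lower under both hairpins, with ZNF664 nearest at -0.999 and -1.22. ZNF146, a protein made almost entirely of fingers, was at 41.5 TPM in shCON, 18 TPM with shUSP16#1 and 9.09 TPM with shUSP16#2, changes of -1.16 and -2.08. It had the lowest value of any member under each hairpin on the log2 scale. ZNF639, whose finger is shown above, was at 41.2, 19.8 and 14.1 TPM in the same order, changes of -1.02 and -1.49. ZNF664 was at 51.9, 23.6 and 19.3 TPM, changes of -1.11 and -1.38.

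ZNF638, which binds unintegrated retroviral DNA and recruits the HUSH silencing complex to it, was at 19.3 TPM in shCON, 8.46 TPM with shUSP16#1 and 7.54 TPM with shUSP16#2. ZNF106, an RNA-binding protein, was at 11.3, 4.85 and 3.84 TPM, and ZNF451, a SUMO ligase, at 10.9, 4.93 and 2.6 TPM. ZNF35 was at 11.2, 5.0 and 4.68 TPM. In each of these genes shUSP16#1 lay more than 2-fold below shCON, and shUSP16#2 lay lower still.

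ZNF207, ZNF121 and ZNF26 came next and fell under shUSP16#2 alone. ZNF207, also called BuGZ, binds the checkpoint protein BUB3 at kinetochores, and it was at 102 TPM in shCON, 50.9 TPM with shUSP16#1 and 38.8 TPM with shUSP16#2. On the log2(TPM + 1) scale its change under shUSP16#1 was -0.99, just short of 2-fold. Those of ZNF121 (-0.98) and ZNF26 (-0.97) were also just short of it. ZNF26, at 8.92, 4.06 and 2.37 TPM, was the KRAB gene lowered most under both hairpins, and its deposited length of 17697 bases was the longest of the 134.

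ZNF524 and ZNF580 rose under shUSP16#1. ZNF524, which binds telomeric repeats, was at 10.7 TPM in shCON, 28 TPM with shUSP16#1 and 22.1 TPM with shUSP16#2, changes of 1.30 and 0.98. ZNF580 was at 13.7, 29.1 and 19.6 TPM, changes of 1.03 and 0.49. Each shares exonic sequence with a neighbour: 14.1% of the exon bases of ZNF524 overlap FIZ1 on the opposite strand, and 15.1% of those of ZNF580 overlap ZNF581 on the same strand. The strand setting of the counting is not given in the sources used here, so reads in these stretches cannot be told apart by gene.

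The other genes raised most stayed under 2-fold on the log2(TPM + 1) scale. ZNF837 was at 3.47 TPM in shCON, 7.65 TPM with shUSP16#1 and 5.88 TPM with shUSP16#2, and ZNF219 at 4.3, 7.45 and 6.4 TPM. ZNF385A, a p53 target that binds RNA, was at 9.69, 12.8 and 19.8 TPM and ZNF133 at 6.79, 9.12 and 11.6 TPM, so both were highest under shUSP16#2. ZNF544 was at 25.7, 35.7 and 37.1 TPM, ZNF480 at 5.05, 8.88 and 6.9 TPM, ZNF226 at 6.99, 10.3 and 9.12 TPM, and ZNF517 at 6.36, 9.64 and 8.32 TPM. In all 10 both hairpin libraries lay above shCON, and 4 of them (ZNF544, ZNF480, ZNF226 and ZNF517) have KRAB listed in the deposited annotation.

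**Figure D3:**
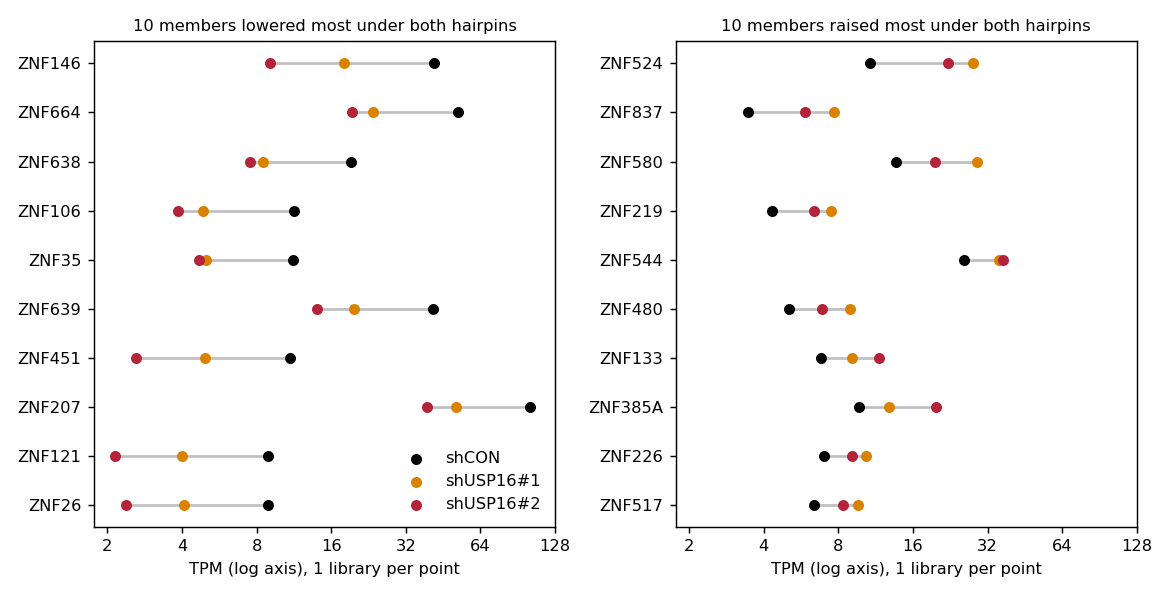
TPM (log axis) in shCON (black), shUSP16#1 (orange) and shUSP16#2 (red), 1 library per point, for the 10 ZNF genes lowered most (left) and raised most (right) under both hairpins. All 10 lowered genes run in the order shCON, shUSP16#1, shUSP16#2 from high to low, ending at 2.14 TPM in ZNF121, while shUSP16#1 is the higher of the hairpins in 7 of the 10 raised genes.

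The hairpins differed most for ZNF791, ZNF621 and ZNF83. ZNF791 was at 8.64 TPM in shCON, 6.34 TPM with shUSP16#1 and 1.96 TPM with shUSP16#2, the lowest level of any member in any library. ZNF621 was at 10.1, 6.41 and 2.28 TPM, and ZNF83 at 9.54, 8.07 and 3.17 TPM. All 3 fell under shUSP16#2 and stayed within 1.5-fold under shUSP16#1 on the log2(TPM + 1) scale. With 1 library per hairpin, a difference between hairpins and a difference between libraries cannot be told apart.

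By domain class, the lowest medians were those of the genes without a listed C2H2 finger. KRAB genes had a median change of -0.12 under shUSP16#1 and -0.34 under shUSP16#2, C2H2 genes without KRAB -0.11 and -0.26, and the 14 genes without a listed C2H2 finger -0.27 and -0.54. The counts of fallen genes were 0, 5 and 2 under shUSP16#1 and 9, 15 and 4 under shUSP16#2, beside 5.54% and 19.5% of all genes. The 0 for KRAB genes rests on the added 1, since ZNF26 and ZNF124 were more than 2-fold lower in TPM alone. The 8 SCAN genes had medians of -0.27 and -0.28, and ZNF131, the BTB gene, was at 17.4 TPM in shCON, 9.15 TPM with shUSP16#1 and 7.14 TPM with shUSP16#2.

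The 9 KRAB genes that fell under shUSP16#2 were ZNF621, ZNF791, ZNF26, ZNF778, ZNF124, ZNF562, ZNF195, ZNF286A and ZNF669, of which ZNF778, ZNF124, ZNF195, ZNF286A and ZNF669 were named after their values were seen. ZNF778 was at 20.2 TPM in shCON, 14.5 TPM with shUSP16#1 and 6.82 TPM with shUSP16#2, and ZNF195 was at 16.4, 8.41 and 6.99 TPM. Under shUSP16#1 the changes of the 9 genes ran from -0.97 in ZNF26 to -0.32 in ZNF669. The fallen genes without KRAB included ZNF770 (9.71, 4.75 and 2.29 TPM), ZNF644 (10.6, 6.79 and 3.25 TPM) and ZNF22 (16.2, 12.2 and 6.16 TPM), also named after their values were seen. All of these ran in the order shCON, shUSP16#1 and shUSP16#2 from high to low.

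The number of fingers did not order the changes. Across 132 genes with a coding sequence, the rank correlation of finger number with the change was -0.035 under shUSP16#1 and -0.078 under shUSP16#2. These and the other rank correlations here are across genes, which are not independent replicates, within the same 3 libraries, and are given as a description.

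Across ZNF genes, as across other genes, longer transcripts tended to have lower values under both hairpins. The rank correlation of the change with the deposited length was -0.31 under shUSP16#1 and -0.33 under shUSP16#2 in the 134 ZNF genes, and -0.25 and -0.29 in the 9053 other genes. The median length was 3027 bases against 2555 bases. Under 2000 bases the 22 ZNF genes had median changes of -0.10 and -0.19 against -0.023 and -0.12 in other genes of that length. From 2000 to under 3000 bases the values were 0.046 and -0.096 in 44 ZNF genes against -0.15 and -0.28, and from 3000 to under 5000 bases -0.17 and -0.38 in 39 against -0.28 and -0.52. From 5000 bases they were -0.48 and -0.85 in 29 ZNF genes against -0.44 and -0.74.

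The KRAB genes followed this order less closely. Their rank correlation with length was -0.15 under shUSP16#1 and -0.16 under shUSP16#2, against -0.39 and -0.40 in the ZNF genes without KRAB. Under 2000 bases the 5 KRAB genes had medians of -0.32 and -1.01, and from 5000 bases the 12 KRAB genes had medians of -0.17 and -0.44.

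Single genes departed from this order at both ends. The 3 longest were ZNF26 (17697 bases), ZNF562 (12639 bases) and ZNF264 (12163 bases), all KRAB genes. ZNF562 was at 7.53 TPM in shCON, 5.1 TPM with shUSP16#1 and 2.76 TPM with shUSP16#2, while ZNF264 was at 5.63, 7.64 and 6.45 TPM, above shCON under both hairpins. Of the shortest, ZNF706 (501 bases), ZNF593 (698 bases) and ZNF428 (827 bases), ZNF428 was at 15.3, 28.5 and 16.2 TPM and the others lay within 1.5-fold of shCON under shUSP16#1. Among the 22 genes under 2000 bases, 6 fell under shUSP16#2 (27.3%, against 10.7% of other genes of that length), ZNF639, ZNF121, ZNF207 and ZNF621 among them.

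**Figure D4:**
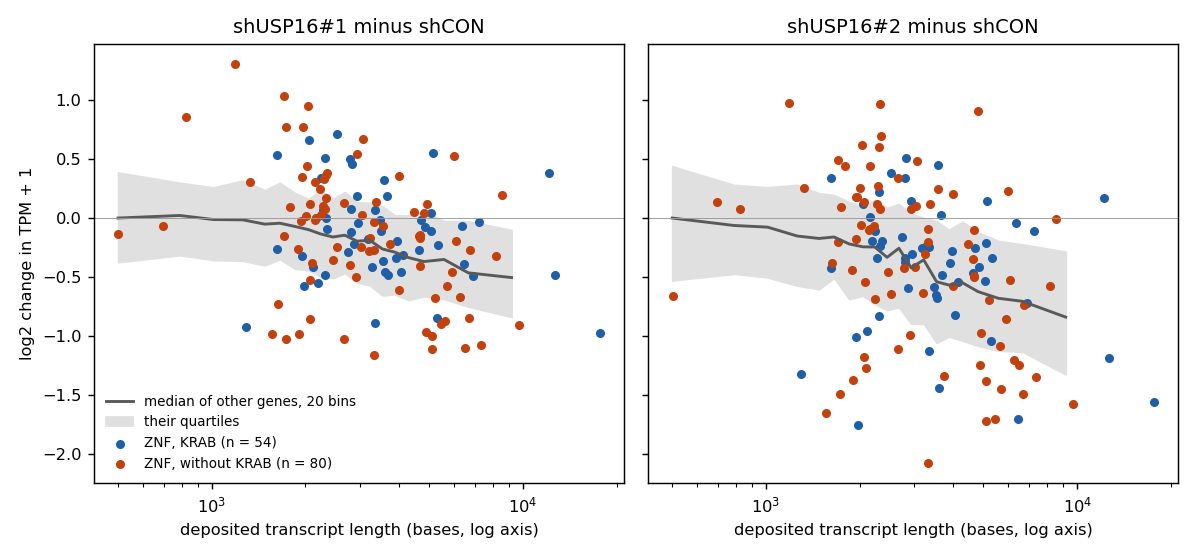
Log2 change in TPM + 1 against the deposited transcript length (bases, log axis) under shUSP16#1 (left) and shUSP16#2 (right), with KRAB genes in blue and other ZNF genes in orange; the line and band are the median and quartiles of other genes in 20 bins. Points lie both above and below the band over most of the range, and the 29 ZNF genes from 5000 bases have medians of -0.48 and -0.85.

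GC content, the share of G and C in the transcript, ordered the ZNF genes more closely than length did. The rank correlation of the change with GC content was 0.54 under shUSP16#1 and 0.63 under shUSP16#2 in ZNF genes, and 0.59 and 0.68 in 9025 other genes. With GC content held fixed, the rank correlation with length was -0.17 and -0.18 in ZNF genes and -0.17 and -0.22 in other genes. With length held fixed, that with GC content was 0.49 and 0.58 in ZNF genes and 0.57 and 0.66 in other genes. Whether GC content or length plays a part in the changes of single genes was not tested.

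All 28 ZNF genes that fell under shUSP16#2 lay under 50% GC, between 35.4% and 49.4%. They were 45.9% of the 61 ZNF genes under 50% GC, where 37.5% of other genes under 50% GC fell. With the minimum set on the mean of the hairpin libraries, 14 of 45 members under 50% GC fell, where 34% of other genes did. None of the 73 ZNF genes from 50% GC fell, where 3.82% of other genes did. Of the 37 genes above shCON under both hairpins, 30 had a GC content of at least 55%. Among all the ZNF genes, 15 with KRAB and 45 without KRAB lay in that range. Other genes in that range also had medians above shCON, at 0.15 under shUSP16#1 and 0.11 under shUSP16#2. The GC content of other genes above shCON under both hairpins is not given, so the count of 30 has no background. Of the genes whose fingers are shown above, ZNF639 had a transcript of 35.4% GC and ZNF524 one of 64.9% GC.

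The KRAB genes departed from this order. In the 80 ZNF genes without KRAB the rank correlation of the change with GC content was 0.69 under shUSP16#1 and 0.76 under shUSP16#2, and in the 54 KRAB genes it was 0.095 and 0.17. Their GC ranges overlapped: 38.5% to 68.3% in KRAB genes and 35.4% to 71.1% in the others. Restricted to the 67 genes without KRAB inside the range of the KRAB genes, the correlation was 0.63 and 0.73. In 68 other genes with C2H2 fingers and neither KRAB nor a ZNF symbol it was 0.64 and 0.77. The split by KRAB was looked at after the GC values had been seen and has no test.

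In wide bands of GC content, the difference was largest in the lowest band. Under 45% GC, the 16 KRAB genes had median changes of -0.11 under shUSP16#1 and -0.42 under shUSP16#2, the 22 ZNF genes without KRAB -0.77 and -1.22, and the 2633 other genes -0.59 and -0.97. In that range 0 KRAB genes fell under shUSP16#1 and 6 under shUSP16#2, against 5 and 15 of those without KRAB. That 0 again depends on the added 1, since ZNF26 and ZNF124 lie in this range. In the same range 12.3% and 47.2% of other genes fell, against 0% and 37.5% of the KRAB genes and 22.7% and 68.2% of those without KRAB. From 45% to under 55% GC the medians were -0.11 and -0.41 in 23 KRAB genes and -0.35 and -0.55 in 13 without KRAB. From 55% GC they were -0.12 and -0.25 in 15 KRAB genes and 0.096 and 0.12 in 45 without KRAB. Across these bands the KRAB medians hardly moved under shUSP16#1. In narrower bands they were less even. Under shUSP16#1 they ran from 0.55 in 3 genes under 40% GC to -0.39 in 13 genes from 40% to under 45%. Members without KRAB had medians of -0.91 in 9 genes and -0.50 in 13 genes in those bands. From 45% to under 50% GC the medians were -0.10 in 18 KRAB genes and -0.99 in 5 without KRAB. In that band 16.7% and 80% of them fell under shUSP16#2, where 21.2% of other genes fell. The difference thus did not widen evenly as GC content fell. From 40% to under 45% GC, 46.2% of KRAB genes fell under shUSP16#2, against 40.5% of other genes and 53.8% of members without KRAB. Under 40% GC lay 3 of the KRAB genes and 9 of the members without KRAB.

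Of the 37 ZNF genes above shCON under both hairpins, 5 lay under 50% GC and all 5 carry KRAB. They were ZNF480, ZNF226, ZNF544, ZNF264 and ZNF248. KRAB was carried by 3 of 12 members under 40% GC and 13 of 26 from 40% to under 45%. From 45% to under 50% GC it was carried by 18 of 23. ZNF248, at 22 TPM in shCON, 32.7 TPM with shUSP16#1 and 24.5 TPM with shUSP16#2, was named after its values were seen. ZNF480 had a transcript of 38.5% GC, the lowest of any KRAB gene. With the GC trend removed and the median of all other genes added back, its values were 1.18 under shUSP16#1 and 1.17 under shUSP16#2. Those of ZNF26, at 41.3% GC, were -0.54 and -0.89, where the other genes had medians of -0.17 and -0.34. KRAB genes of like GC content thus lay on both sides of the other genes.

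**Figure D5:**
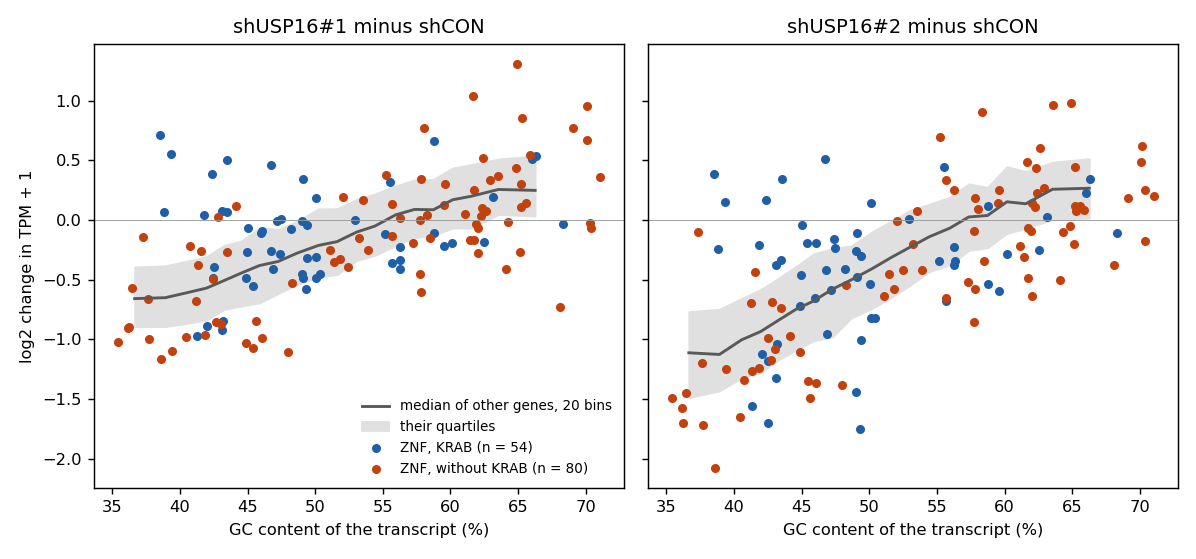
Log2 change in TPM + 1 against the GC content of the transcript (%) under shUSP16#1 (left) and shUSP16#2 (right), with 54 KRAB genes in blue and 80 other ZNF genes in orange; the line and band are the median and quartiles of other genes in 20 bins. The orange points rise with GC content (rank correlation 0.69 and 0.76), and the blue points show little slope (0.095 and 0.17).

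This pattern was looked at in further ways, all chosen after the values had been seen. With KRAB read from translated coding sequences in place of Pfam, which found it in 47 of the 54 and in 0 of the others, the correlation with GC content was 0.034 and 0.085 in KRAB genes and 0.71 and 0.77 in the other 85. Among genes with a transcript of exactly the deposited length it was -0.074 and -0.040 in 29 KRAB genes, 0.82 and 0.84 in 38 without KRAB and 0.54 and 0.64 in 4351 other genes. In ZNF genes from 1 to under 5 TPM, which hold none of the 134, it was 0.17 and 0.29 in 117 KRAB genes, 0.55 and 0.64 in 53 without KRAB and 0.43 and 0.54 in 3942 other genes. Within parts of the KRAB genes the values were less even: from 55% GC it was 0.45 and 0.38 in 15 KRAB genes, above the 0.26 and 0.18 of 45 without KRAB, and it was 0.22 and 0.35 in 31 KRAB genes off chromosome 19 against -0.045 and 0.027 in 23 on it. KRAB genes are lower in level, with a median mean of 8.06 TPM against 11.5 TPM for C2H2 genes without KRAB, and the part of the level in this pattern was not tested.

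Removing the GC trend of the other genes left the ZNF genes slightly lower than before. Their median was then -0.24 under shUSP16#1 and -0.47 under shUSP16#2, against -0.17 and -0.34 in other genes. By class, the medians after removal were -0.088 and -0.31 in KRAB genes and -0.28 and -0.50 in C2H2 genes without KRAB.

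Many KRAB genes arose by tandem duplication and sit in clusters on chromosome 19. That chromosome held 45 of the 134 genes (33.6%, against 6.65% of other genes), 23 of them with KRAB. Their median changes were 0.064 under shUSP16#1 and -0.16 under shUSP16#2, against -0.22 and -0.42 in the 89 ZNF genes elsewhere and 0.14 and 0.091 in 602 other genes of chromosome 19. The KRAB genes of chromosome 19 had medians of -0.089 and -0.33 and those elsewhere -0.19 and -0.34. The 22 without KRAB on chromosome 19 had medians of 0.24 and 0.078 and a median GC content of 63.7%.

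Neighbouring genes were grouped where the gap between them was at most 100 kb. The largest group was 7 genes of chromosome 19 within 169 kb, ZNF628, ZNF579, ZNF524, ZNF865, ZNF784, ZNF580 and ZNF581, none with KRAB. Its median GC content was 64.9%, its median changes were 0.44 under shUSP16#1 and 0.25 under shUSP16#2, and 5 of the 7 were above shCON under both hairpins. Next to one another on the same chromosome, ZNF586, ZNF552, ZNF587B and ZNF587 all carry KRAB and were all below shCON under both hairpins, with medians of -0.45 and -0.46. A further group of the chromosome, ZNF544, ZNF837, ZNF584, ZNF324 and ZNF446, holds 4 KRAB genes and had medians of 0.46 and 0.12, with 3 of its 5 genes above shCON under both hairpins and 2 below under both. ZNF587 and ZNF587B are close copies, and their reads may have been split between them.

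Members with roles in RNA metabolism and the ribosome were described as a list of 11, all of which reached the minimum. Under shUSP16#1, 1 of them fell (ZNF638) and 0 rose, and under shUSP16#2, 3 fell (ZNF638, ZNF207 and ZNF326) and 0 rose, with medians of -0.15 and -0.44, beside 5.54% and 19.5% of all genes that fell. ZNF326, which couples splicing to transcription by RNA polymerase II, was at 11.7 TPM in shCON, 5.76 TPM with shUSP16#1 and 3.27 TPM with shUSP16#2. ZNF598, the ubiquitin ligase that marks collided ribosomes, was at 34.1, 37.6 and 37 TPM. ZNF330, a nucleolar protein, was at 20.2, 16.7 and 14.6 TPM, and ZNF346, which binds double-stranded RNA, at 10.6, 7.85 and 7.69 TPM. The ribosome-associated members ZNF593, ZNF622 and ZNF598 all lay within 1.5-fold of shCON in both libraries.

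Of 10 listed activators and chromatin factors, all reached the minimum, with medians of -0.51 under shUSP16#1 and -0.78 under shUSP16#2. Under shUSP16#1, 2 fell (ZNF146 and ZNF451), and under shUSP16#2, 4 fell, with ZNF532 and ZNF24 added, beside 5.54% and 19.5% of all genes. ZNF532, ZNF592 and ZNF687 form a complex with the chromatin reader ZMYND8. ZNF532 was at 24.5 TPM in shCON, 13.2 TPM with shUSP16#1 and 8.07 TPM with shUSP16#2, ZNF592 at 7.31, 5.64 and 4.57 TPM, and ZNF687 at 13.3, 13.8 and 25.8 TPM, and of the 3 only ZNF532 reached 2-fold, under shUSP16#2.

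The paired activators of small nuclear RNA genes also lay on opposite sides of shCON. ZNF143 was at 13.4 TPM in shCON, 9.22 TPM with shUSP16#1 and 6.26 TPM with shUSP16#2. Its change of -0.99 under shUSP16#2 was just short of 2-fold on the log2(TPM + 1) scale. Its relative ZNF76 was at 14.1, 15.5 and 18.1 TPM. ZNF410, an activator of the remodeller gene CHD4, was at 20.9, 14.2 and 14 TPM.

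Of 10 listed cancer-associated factors and co-repressors, 4 reached the minimum. All 4 were below shCON under both hairpins, as were 58.2% of other genes. ZNF217, a gene amplified in breast cancer, was at 15.4 TPM in shCON, 7.95 TPM with shUSP16#1 and 6.75 TPM with shUSP16#2 and fell under shUSP16#2. ZNF281 was at 9.64, 4.45 and 3.5 TPM and also fell under shUSP16#2, where 19.5% of all genes fell. It passed the minimum through its shCON level. The related co-repressors ZNF503, at 11.1, 8.94 and 6.76 TPM, and ZNF703, at 6.72, 5.41 and 5.72 TPM, did not reach 2-fold.

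Of 11 listed KRAB genes known to bind transposable elements, 0 reached the minimum. ZNF91, which binds SVA elements, was at 0 to 0.01 TPM, and ZNF93, which binds LINE-1 elements, was listed at 0 in all 3 libraries. ZNF37A was at 5.05 TPM in shCON, 2.41 TPM with shUSP16#1 and 2.09 TPM with shUSP16#2, and ZNF33A at 5.07, 4.34 and 2.12 TPM.

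The study used a c-Myc gene signature that names 8 ZNF genes, of which ZNF593, ZNF511, ZNF296, ZNF335 and ZNF696 reached the minimum and 0 fell or rose. Of all genes 5.54% fell under shUSP16#1 and 19.5% under shUSP16#2, and 2.01% and 2.1% rose, so 5 genes are too few to read the 0. The 5 had transcripts of 56.3% to 68.1% GC, and 1.68% of other genes from 55% GC fell under shUSP16#2. Their median changes were -0.070 under shUSP16#1 and -0.22 under shUSP16#2. With the GC trend removed these were -0.44 and -0.69, against -0.17 and -0.34 in other genes. ZNF296 was at 8.53 TPM in shCON, 4.74 TPM with shUSP16#1 and 6.33 TPM with shUSP16#2, ZNF696 at 13.2, 9.69 and 9.03 TPM, and ZNF335 at 12.3, 12.8 and 10.5 TPM.

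Transcripts of the partners of KRAB factors were at higher levels than those of the factors themselves, with a median mean of 51.6 TPM. Of 15 such genes at the minimum, 13 were below shCON under shUSP16#1 and 15 under shUSP16#2, with medians of -0.51 and -0.72, where 62.5% and 69.2% of other genes lay below shCON. Under shUSP16#1, 1 fell and under shUSP16#2, 4 fell, beside 5.54% and 19.5% of all genes. TRIM28, the co-repressor bound by KRAB, was at 578 TPM in shCON, 536 TPM with shUSP16#1 and 529 TPM with shUSP16#2, and SETDB1 at 21.2, 16.5 and 15.3 TPM. TASOR, the scaffold of the HUSH complex, was at 21.9, 9.99 and 6.57 TPM and fell under both hairpins. CBX3, a heterochromatin protein, was at 161, 83.8 and 50.8 TPM, and it fell under shUSP16#2, as did the deacetylase HDAC2 (75.8, 45.9 and 33.2 TPM) and the HUSH subunit MPHOSPH8 (10.7, 7.25 and 4.42 TPM). The 4 that fell had transcripts under 45% GC, as did CBX5 (12.1, 8.98 and 7.5 TPM), which did not reach 2-fold, and that of TRIM28 was at 63.7% GC.

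Other zinc finger families at the same minimum gave median changes of -0.13 under shUSP16#1 and -0.29 under shUSP16#2 for 16 ZBTB genes, -0.60 and -0.63 for 6 ZFP genes, and -0.14 and -0.48 for 4 ZKSCAN and ZSCAN genes. The 12 KLF and SP genes had medians of -0.37 and -0.69. The ZC3H genes are named for fingers in which 3 cysteines and 1 histidine hold the zinc ion. The 15 at the minimum had medians of -0.71 and -1.05 at a median GC content of 46.6%. Of these 15, 8 fell under shUSP16#2, beside 19.5% of all genes and 21.2% of other genes from 45% to under 50% GC. The median GC content was 58.7% in the ZBTB genes and 51.6% in the ZNF genes.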

How the data were processed

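The authors sequenced TruSeq libraries of total RNA from PC3 cells, 1 per condition, and deposited gene levels as TPM, rounded to 2 decimals, in 1 table of 60930 entries from the Majorbio Cloud Platform. The submitters' processing notes name CASAVA, HISAT2 and hg19; the quantification tool, annotation and strand setting are not given in the sources used here. TPM keeps no depth, so no interval was given. The table repeats its 3 TPM columns with identical values, and the repeats were not used. Entries with a repeated or missing symbol (1587) were left out.

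Changes were log2(TPM + 1) differences, called at 2-fold, with no test of the changes. The arithmetic of the medians and calls was checked on simulated data. Identifiers of 58516 genes matched GENCODE release 29. GC content was that of the transcript of the deposited length (67 of the 134) or otherwise the longest, and coding sequences, fingers and exon overlaps (at least 10% of exon bases with a gene of at least 1 TPM, 19 members) came from the same release, on GRCh38. A finger was C, 2 to 4 residues, C, 12 residues, H, 3 to 5 residues, H. Domain classes were read from the deposited Pfam column, since the protein table planned for them was not used here. Trends were removed by subtracting the median of other genes in 20 bins and adding back the median of all other genes.

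Named members were the 10 lowered and 10 raised most under both hairpins (by the smaller change), the 6 most abundant, the 3 longest and shortest, the 3 that differed most between hairpins, the 2 on either side of the minimum, and the listed genes. Genes named only in a domain class or chromosomal group, and those said in the text to be named after their values were seen, fall outside this rule. The members and lists were chosen with earlier results of these data known. Some items are not reported here. Python 3.11.15, numpy 2.4.6, pandas 2.3.3 and matplotlib 3.10.9 were used.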

Additional observations from a re-analysis of the deposited data

How the results depend on the processing

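With 1 library per condition, no alternative carries an error, TPM keeps no depth, and values were set against a move of 0.1 (log2) or 1.5-fold in a count. In 89 comparisons with an alternative the value stayed within that limit, and in 51 it moved further.

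Medians under shUSP16#1 and shUSP16#2 were 0.035 and -0.00045 after centring on other genes, -0.00078 and -0.097 at a minimum of 10 TPM, and -0.034 and -0.21 with the minimum set on the hairpin libraries. Under shUSP16#2 alone they moved to -0.44 at a minimum of 1 TPM, -0.45 with the minimum on shCON, -0.22 without the length trend and -0.47 without the GC trend. The median minus that of other genes moved to 0.14 under shUSP16#1 and 0.18 under shUSP16#2 at 10 TPM, and under shUSP16#2 to -0.16 with no minimum, 0.11 without the length trend and -0.14 without the GC trend.

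Counts of lower genes under shUSP16#1, shUSP16#2 and both were 13, within 1.5-fold of 28, and 13 with a pseudocount of 0.1, then 0, 16 and 0 after centring, 4, 11 and 4 at 10 TPM, 4, 15 and 4 with the minimum on the hairpin libraries, and 1, 12 and 0 without the GC trend. Under shUSP16#2 they were 52 at 1 TPM and 53 with no minimum. Shares of other genes at these settings are not given. Counts of higher genes were 4, 4 and 1 after centring; 2 under shUSP16#2 and 1 under both with a pseudocount of 0.1; 5 and 2 under shUSP16#1 and shUSP16#2 at 1 TPM and with no minimum; 4 under shUSP16#1 with the minimum on the hairpin libraries; 1 and 1 without the length trend; and 1 under shUSP16#2 and 1 under both without the GC trend.

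Chosen after seeing the data, removal of both trends gave 1 lower under shUSP16#1, 12 under shUSP16#2 and 1 under both, and 2 higher under shUSP16#2 and 2 under both. Leaving out members that share exons gave 0 higher under shUSP16#1, and leaving out pseudogenes moved no value past the limit. The cause of these moves was not tested, beyond the fewer or more genes that a minimum admits. No paired analysis was possible because only 1 library was made per condition.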

Other observations

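ZNF genes from 1 to under 5 TPM, a further 170 symbols below the minimum, were for the most part KRAB genes: 117 carried KRAB and 53 did not. Their median changes on the log2(TPM + 1) scale were -0.21 under shUSP16#1 and -0.57 under shUSP16#2 with KRAB, and -0.28 and -0.62 without KRAB, against -0.18 and -0.45 in 3942 other genes of the same range. Of the KRAB genes, 80 lay below shCON under shUSP16#1 and 97 under shUSP16#2. At a pseudocount of 1, 0 of the KRAB genes were 2-fold lower under shUSP16#1 and 16 under shUSP16#2, against 1 and 8 of those without KRAB and 6.06% and 20.04% of other genes. At a pseudocount of 0.1 these counts were 10 and 49 with KRAB and 7 and 25 without, against 14.6% and 35.5% of other genes. The median GC content was 43.2% in these KRAB genes and 46.5% in those without KRAB. The range was chosen after seeing the data, and at such levels 1 TPM of added pseudocount is a large part of each value.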
